A study of Mus musculus with 6 samples.

Results

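S100 calcium-binding proteins were read here at the level of their transcripts: 10 S100 genes, chosen by name, of the 24421 gene symbols listed in every library. The members were S100b, S100a1, S100a4, S100a6, S100a8, S100a9, S100a10, S100a11, S100a13 and S100a16. RNA-seq had been performed on cells that were sorted for TurboRFP from olfactory bulb tissue of adult male mice of strain C57BL/6, with 3 mice and 3 libraries per group and 1 library per mouse. Both groups carried the same virus, AAV-GFAP-iCre-P2a-TurboRFP, given 4 weeks before the sort. In Sox9 KO the recipients were Sox9fl/fl mice, in which the Cre deletes Sox9, a transcription factor of mature astrocytes. In WT the recipients were C57BL/6J mice without the floxed allele, so that the controls also expressed Cre and TurboRFP. The GFAP promoter set which cells made Cre and the sorting marker, and the sorted cells went directly into lysis buffer as bulk total RNA. The comparison asks how S100 expression in these cells differed after loss of Sox9.

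The libraries held between 18242129 and 86906527 reads on genes, and values are normalized counts, that is, reads divided by 1 size factor per library. Sox9 itself fell in KO to 1.05% of its WT mean, with 4921 to 6562 normalized counts in WT and 52.6 to 64.3 in KO. The labelled cell type was checked against markers that are not members. All 10 astrocyte markers were lower in KO, at an adjusted p under 0.05 and 1.5-fold (limma), and their summed level went from between 449710 and 500139 normalized counts in WT to between 31493 and 40223 in KO. In the opposite direction, 13 of 14 microglia and macrophage markers were higher in KO, and their summed level went from between 204641 and 228332 to between 702651 and 804103. Markers of neurons (8 of 9), oligodendrocytes (8 of 8), their precursors (5 of 5) and olfactory ensheathing cells (5 of 7) were lower as well. Lists for border macrophages, monocytes, neutrophils, dendritic cells and endothelial cells held members called in both directions. Of 7 lymphocyte markers 2 were higher, and of 8 mural cell and fibroblast and 5 ependymal markers 3 and 2 were lower. Over all genes tested, 28.8% were lower and 22.2% higher by the same rule, so these last counts are a description only. The KO libraries held more counts of microglial than of astrocyte markers, against their label. In bulk RNA, fewer cells of a type and less RNA per cell cannot be told apart, and this holds for every member below; the part of these markers in the S100 results was not tested.

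S100 proteins are small EF-hand proteins, mostly dimers, that change shape when they bind calcium and then dock on target proteins such as annexins, the cytoskeleton or enzymes. Some are released by cells and act outside them on receptors such as the receptor for advanced glycation end products (Ager) and Toll-like receptor 4 (Tlr4). S100B is among the most used markers of astrocytes, whereas the S100A8 and S100A9 pair is abundant in neutrophils and monocytes. Most S100 genes of the mouse lie side by side on chromosome 3. In the RefSeq annotation of GRCm38.p6 (mm10), 9 of the 10 members lay there, between positions 90511034 and 93564645. Of these, 7 fell within 185 kb, and S100a11 and S100a10 followed 2825 kb further on. S100b lay on chromosome 10 at 76253836 to 76261319, on the plus strand. S100a1 (90511034 to 90514330, minus strand) and S100a13 (90514233 to 90524581, plus strand) overlapped by 98 bases, and no source used here gives a strand setting for the counting, so reads from that stretch cannot be told apart.

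The 250 bases before the start of 3 members are shown. S100b and S100a16 were among the members with the largest differences, and S100a4 was the member with the lowest level. S100a1, with a log2 fold change of -3.29 beside -3.24 for S100a16, is not shown. Its window held no match to the motifs named below. RefSeq windows were at hand for 9 members, in 10 windows of 300 bases. Capitals mark matches, on either strand, to ACAAT (a core recognised by SOX proteins, ATTGT on the other strand), to TTGGC (bound by the NFI factors as one arm of their site, GCCAA on the other strand) and to TATAAA (the TATA box).
S100b, chr10:76253586-76253835, plus strand: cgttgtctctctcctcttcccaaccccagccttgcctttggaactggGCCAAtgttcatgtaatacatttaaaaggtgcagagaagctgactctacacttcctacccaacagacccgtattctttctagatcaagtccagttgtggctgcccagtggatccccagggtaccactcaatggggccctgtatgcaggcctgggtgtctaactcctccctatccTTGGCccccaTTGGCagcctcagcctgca
S100a16, chr3:90537004-90537253, plus strand: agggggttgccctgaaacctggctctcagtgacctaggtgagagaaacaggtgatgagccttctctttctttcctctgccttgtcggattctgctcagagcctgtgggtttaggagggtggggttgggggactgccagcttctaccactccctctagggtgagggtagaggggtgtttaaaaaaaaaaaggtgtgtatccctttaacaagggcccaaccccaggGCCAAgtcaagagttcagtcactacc
S100a4, chr3:90603520-90603769, plus strand: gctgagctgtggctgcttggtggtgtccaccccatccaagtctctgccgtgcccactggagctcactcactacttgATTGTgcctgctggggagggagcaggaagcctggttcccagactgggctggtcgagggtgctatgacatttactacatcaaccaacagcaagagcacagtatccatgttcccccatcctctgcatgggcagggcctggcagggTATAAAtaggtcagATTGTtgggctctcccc
The S100b stretch held TTGGC at 3 places, with first bases at -203, -29 and -19 relative to the start (-1 is the base just before it), and no ACAAT. The first S100a16 window held 1 TTGGC, whereas its other window, at an inner start, held ACAAT. S100a4 held ACAAT at -174 and -17 beside a TATAAA at -31. Among all 32851 windows of this length, 31.0% held ACAAT, against 2 of the 10 member windows, and 46.7% held TTGGC, against 6 of 10. TATAAA was in 13.6% of all windows and in those of S100a4, S100a8 and S100a9. ACAAAG, a further SOX core, was in 18.7% of all windows and in that of S100a8 only among the members. A match describes the letters of the window and is no evidence of binding.

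All 10 S100 members were lower in KO than in WT and none was higher. A gene was called at an adjusted p under 0.05 (limma on log2(normalized count + 1), Benjamini-Hochberg over the 18413 genes tested) and a difference of at least 1.5-fold. By this rule 28.8% of all genes tested were lower in KO and 22.2% were higher. The median log2 fold change of the members was -2.38, against -0.07 over all genes tested. For 9 members every KO library lay below every WT library, which held for 34.7% of all genes, and S100a9 was the exception. The edgeR and DESeq2 tests on the recovered whole reads also called all 10 members lower, against 27.2% and 27.7% of all genes. The differences were not alike: S100b, S100a1 and S100a16 stood at 8.46% to 10.6% of their WT means in KO, whereas S100a11 kept 55.1%.

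**Figure D1:**
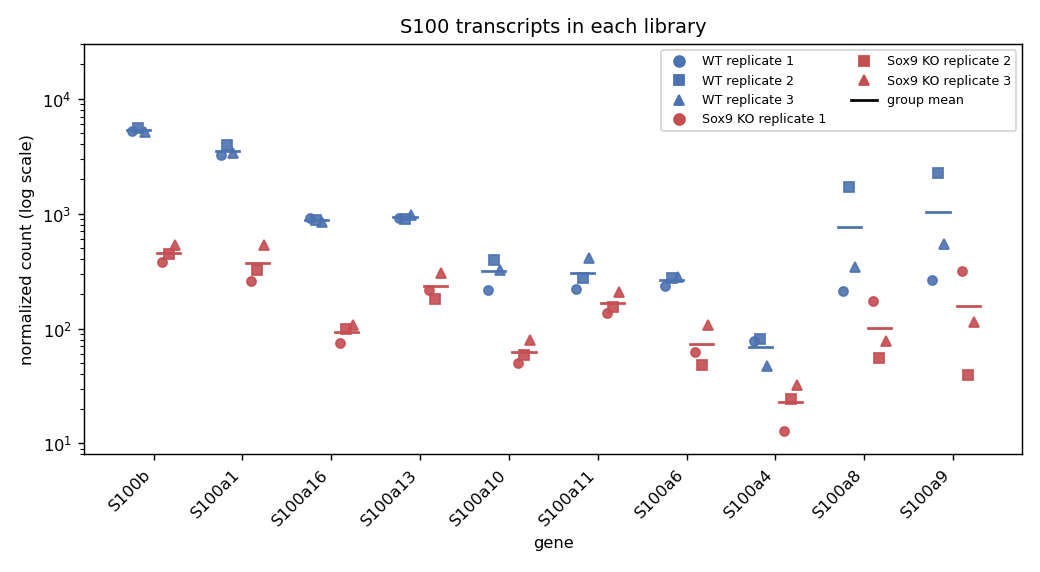
Normalized counts (log axis) of the 10 S100 members in the 3 WT (blue) and 3 Sox9 KO (red) libraries, with 1 symbol per replicate number and a line at each group's arithmetic mean. S100b goes from about 5334 to 451, and only for S100a9 does a KO library lie above a WT library.

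S100b, the classical astrocyte member, was the most abundant S100 transcript of the WT libraries by normalized count. It stood at 5281, 5554 and 5167 normalized counts in WT replicates 1, 2 and 3 and at 378, 446 and 530 in KO replicates 1, 2 and 3. The groups did not overlap, and the libraries of each group were close to each other. The mean fell 11.8-fold, from 5334 ± 199 to 451 ± 76.1 (SD, n = 3 each), and the log2 fold change was -3.57 ± 0.13 (SE), with an adjusted p of 1.24e-08 (limma). Only 3.83% of all genes tested had a lower fold change.

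S100a1, which is known from heart muscle and brain as a regulator of calcium handling, followed S100b. Its levels were 3211, 3937 and 3378 normalized counts in WT and 258, 326 and 535 in KO. KO replicate 3 kept the most S100a1, at still less than any WT library. The log2 fold change was -3.29 ± 0.22 (SE; limma adjusted p = 5.87e-07), a 9.41-fold lower mean. The ratio of S100b to S100a1 was 1.53 ± 0.12 in WT and 1.28 ± 0.25 in KO (SD, n = 3 each), with overlapping ranges and an exact two-sided permutation p of 0.2. With 3 against 3 libraries this test cannot go below 0.1.

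S100a16, a widely expressed member, is placed at 90537254 to 90543151 of chromosome 3. It had 919, 882 and 851 normalized counts in WT and 74.5, 98.7 and 108 in KO. The WT libraries lay close together, and no KO library came near them. The mean was 9.44-fold lower, with a log2 fold change of -3.24 ± 0.18 (SE; limma adjusted p = 1.31e-07). These 3 members fell within the range of the 10 astrocyte markers, whose log2 fold changes ran from -6.84 to -2.72, while S100a4, S100a6, S100a10, S100a11 and S100a13 fell by less than every one of those markers. S100a8 and S100a9 were also above that range in limma, but not in edgeR, where they had log2 fold changes of -2.90 and -2.71 against -2.66 for Slc1a3, the marker that fell least.

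S100a13 takes part in the release of the growth factor FGF1, which leaves cells without a signal peptide. S100a13 stood at 912, 905 and 968 normalized counts in WT and at 218, 179 and 302 in KO. All KO libraries were well below WT, yet S100a13 kept 25.1% of its WT mean, more than its neighbour S100a1 with 10.6%. Its log2 fold change was -2.02 ± 0.18 (SE; limma adjusted p = 5.03e-06). Fgf1, the cargo, was the partner with the largest change: it went from 22271 ± 2714 normalized counts (SD, n = 3) to 735 ± 63.5 (SD, n = 3). Its log2 fold change was -4.92 (limma adjusted p = 2.47e-09).

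S100a10, known as p11, binds no calcium and forms a tetramer with annexin A2 (Anxa2). Its levels were 218, 397 and 326 normalized counts in WT and 49.6, 58.4 and 79.0 in KO. WT replicate 1 was the lowest control and was still above all KO libraries. The log2 fold change was -2.30 ± 0.28 (SE; limma adjusted p = 4.31e-05), a 5.03-fold lower mean. Anxa2 did not pass the test, at 211 ± 49.1 normalized counts (SD, n = 3) in WT and 205 ± 133 (SD, n = 3) in KO, with a log2 fold change of -0.20, a 95% confidence interval from -1.06 to 0.65 and an adjusted p of 0.666 (limma). The ratio of S100a10 to Anxa2 counts was 1.41, 1.69 and 1.34 in WT and 0.446, 0.400 and 0.221 in KO. These ratios did not overlap between the groups (exact two-sided permutation p = 0.1, the smallest the design allows).

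S100a11 lies next to S100a10 and binds annexin A1 (Anxa1). It changed least of the members, with 219, 275 and 411 normalized counts in WT and 137, 154 and 208 in KO. The highest KO library and the lowest WT library were close, at 208 and 219, without overlap. The log2 fold change was -0.83 ± 0.26 (SE; limma adjusted p = 0.0168). This call was lost without KO replicate 1 (adjusted p = 0.0548) and without WT replicate 3 (adjusted p = 0.0710), and with quantile normalisation the log2 fold change was -0.30 (adjusted p = 0.358, limma in each case). Without the variance trend the adjusted p was 0.0518 and without the filter 0.0892 (limma). Anxa1 did not pass the test, with a log2 fold change of 0.03 and a 95% confidence interval from -1.24 to 1.30.

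S100a6, or calcyclin, which binds the calcyclin-binding protein Cacybp, had 237, 273 and 282 normalized counts in WT and 62.5, 48.2 and 108 in KO. The groups were clearly apart, and KO replicate 3 was the highest of its group, as it was for every member but S100a8 and S100a9. The log2 fold change of S100a6 was -1.92 ± 0.29 (SE; limma adjusted p = 0.00022). Cacybp did not pass the test, at 1635 ± 192 normalized counts (SD, n = 3) in WT and 1576 ± 299 (SD, n = 3) in KO. The 95% confidence interval of its log2 difference ran from -0.39 to 0.26.

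S100a4, known as metastasin and a binder of non-muscle myosin, was the member with the lowest level in both groups and rested on 13 to 117 reads per library. It stood at 77.5, 80.5 and 47.3 normalized counts in WT and at 12.9, 24.5 and 31.9 in KO. The groups did not overlap, but the highest KO and the lowest WT library were near each other. The log2 fold change was -1.58 ± 0.42 (SE; limma adjusted p = 0.00766), and with quantile normalisation it was -0.69 (adjusted p = 0.157, limma). Its partner Myh9, a heavy chain of non-muscle myosin, was higher in KO, with a log2 fold change of 0.86 ± 0.11 (SE; limma adjusted p = 5.82e-05).

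S100a8 and S100a9 together make calprotectin, a main protein of the neutrophil cytosol. S100a8 had 213, 1721 and 344 normalized counts in WT and 173, 55.3 and 77.5 in KO. S100a9 had 265, 2275 and 542 in WT and 318, 39.1 and 114 in KO. WT replicate 2 stood far above the other controls for both transcripts, KO replicate 1 was the highest KO library for both, and for S100a9 it lay above WT replicate 1. The log2 fold changes were -2.46 ± 0.67 for S100a8 (SE; limma adjusted p = 0.00875) and -2.60 ± 0.80 for S100a9 (SE; limma adjusted p = 0.0168), the widest errors of the 10 members. Without WT replicate 2, S100a8 had a log2 fold change of -1.57 (adjusted p = 0.0198) and S100a9 one of -1.74 (adjusted p = 0.0768), so that the S100a9 call was lost (limma in each case). It was also lost without KO replicate 2, at -1.85 (limma adjusted p = 0.0655). Both calls were lost without the variance trend, with limma adjusted p-values of 0.0581 for S100a8 and 0.0862 for S100a9, and without the filter on low values, with 0.110 and 0.155.

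WT replicate 2 carried 6.18 times as much S100a8 and 5.64 times as much S100a9 as the mean of the other WT libraries. None of the other 8 members was above 1.46 times. Transcripts of neutrophil granule proteins moved with the pair. In the same library Camp (cathelicidin) was at 6.77 times, Ngp (neutrophilic granule protein) at 5.69 times and Ltf (lactoferrin) at 4.78 times the mean of the other controls. Mpo, the myeloperoxidase of early granules, was at 207 normalized counts in WT replicate 2 and at 0 in the other 5 libraries. Csf3r, the receptor for granulocyte colony-stimulating factor, stood at 0.881 times the mean of the other controls, and Cxcr2 and Mmp9 were at 1.07 times each. Of the 11 neutrophil markers tested, 6 were lower and 1, Csf3r, was higher in KO, beside 28.8% lower and 22.2% higher over all genes tested. Their summed level was 4241 to 7165 normalized counts in WT and 12208 to 14785 in KO. Csf3r alone was at 3137 to 3658 in WT and 11957 to 14551 in KO. Against the sum of Ngp, Camp and Ltf, S100a8 stood at 0.667 ± 0.165 in WT and 0.615 ± 0.203 in KO, and S100a9 at 0.902 ± 0.121 and 0.888 ± 0.532 (SD, n = 3 each). Both ratios overlapped between the groups. They are a description with no test, since these 3 genes were chosen after their values were seen and other neutrophil markers, such as Csf3r, did not follow the pair. The part of neutrophil transcripts in the difference of S100a8 and S100a9 was not tested.

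**Figure D2:**
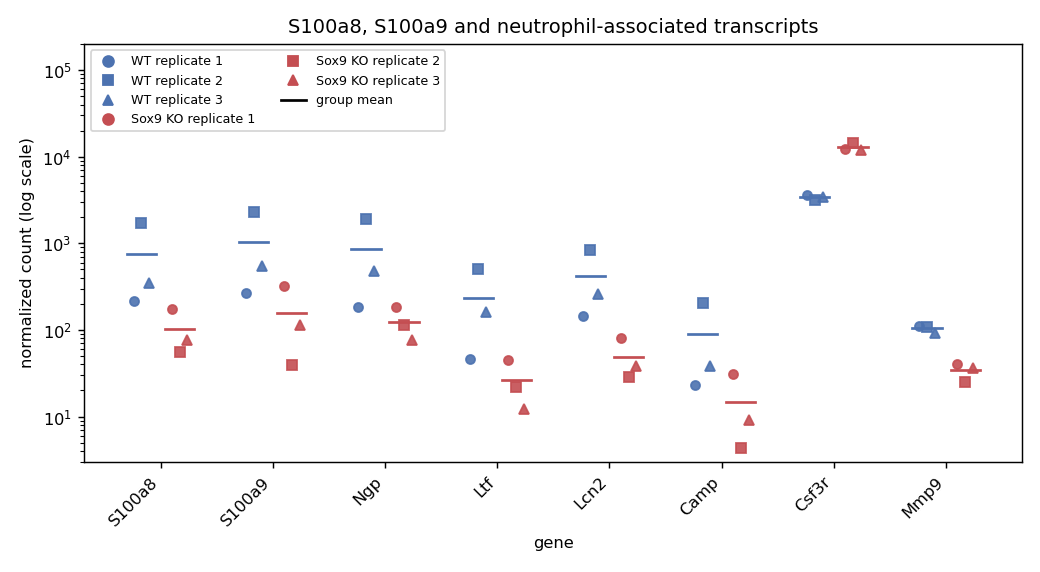
Normalized counts (log axis) of S100a8, S100a9 and neutrophil-associated transcripts in the 3 WT (blue) and 3 Sox9 KO (red) libraries, with lines at the arithmetic group means. WT replicate 2 (blue squares) is the highest library for S100a8, S100a9, Ngp, Ltf, Lcn2 and Camp but not for Csf3r or Mmp9, and Csf3r is higher in KO.

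The ratio of S100a8 to S100a9 counts was 0.807, 0.757 and 0.634 in WT and 0.544, 1.41 and 0.680 in KO. The KO ratios enclosed all WT ratios, and KO replicate 2, with 1.41, was the only library with more S100a8 than S100a9. The exact two-sided permutation p was 0.9.

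Dividing by annotated transcript length allowed an approximate comparison of the members with each other. The annotation behind the counting is not given, so the lengths that apply to these reads may differ. Levels per kb were computed with the median length of the protein-coding GENCODE M21 transcripts of each gene, from 486 bases for S100a8 to 1484 for S100b. In WT, S100a1 then led with 5596 ± 607 normalized counts per kb, ahead of S100b with 3594 ± 134, and the ranges of these 2 genes did not overlap. S100a9 and S100a8 came next by their means, with 1993 and 1562, which rested on WT replicate 2: S100a8 was above S100a13 in 1 of the 3 libraries, and without that replicate their means were 782 and 573, below those of S100a13 and S100a16. They were followed by S100a13 with 1298 ± 48.2, S100a16 with 980 ± 37.7, S100a11, S100a10, S100a6 and S100a4. S100a11 did not overlap S100a16 above it, while S100a11 and S100a10, and S100a10 and S100a6, overlapped. S100a4, at 137 ± 36.9, was below S100a6 in all 3 libraries (SD, n = 3 throughout).

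In KO, S100a1 again had the highest level per kb, 595 ± 230, and S100a4 again the lowest, 46.4 ± 19.2 (SD, n = 3 each). Between them the order differed: S100a13 came next with 326 ± 87.9, then S100a11 with 325 ± 72.8 (SD, n = 3 each). S100a9 with 304 ± 280 and S100b with 304 ± 51.3 were level (SD, n = 3 each). S100a9 was above S100b in 1 of the 3 libraries, KO replicate 1, with 616 against 75.8 and 221 in KO replicates 2 and 3. All neighbours in the KO order had overlapping ranges except S100a16 and S100a4. The level per kb summed over the 10 members was 16733 ± 4681 in WT and 2444 ± 514 in KO, 6.85-fold lower (SD, n = 3 each; exact two-sided permutation p = 0.1, the smallest possible).

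**Figure D3:**
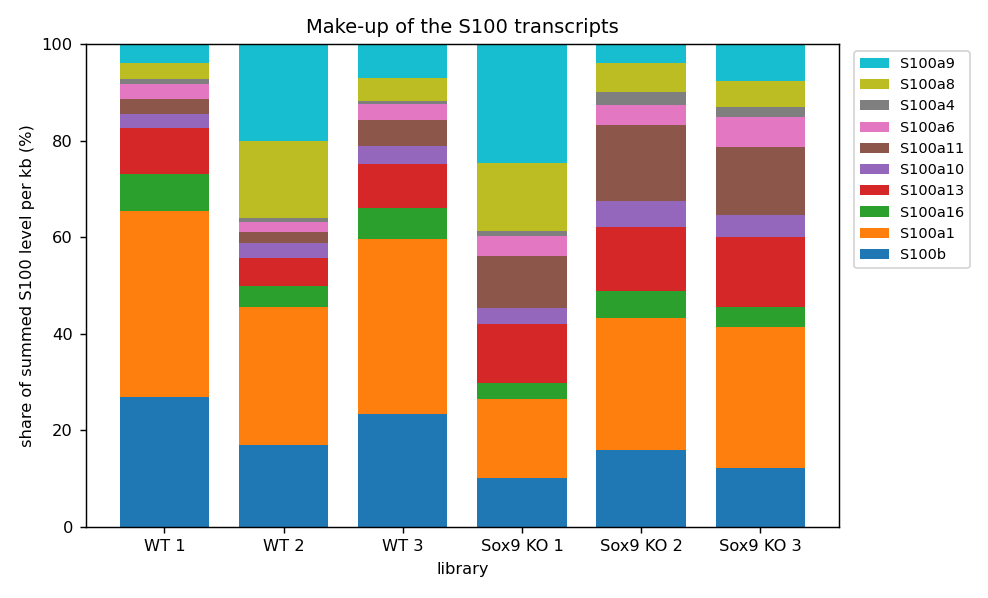
Share of each S100 member in the summed S100 level per kb, in percent, for each of the 6 libraries. S100a1 and S100b fill the lower part of the WT bars, S100a11 (brown) and S100a13 (red) take wider bands in KO, and S100a8 and S100a9 are wide in WT 2 and Sox9 KO 1.

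The make-up of the S100 transcripts differed as well. S100a11 made up 2.44% to 5.42% of the summed level per kb in WT and 10.7% to 15.8% in KO, and S100a13 5.74% to 9.60% and 12.2% to 14.5%. S100b moved the other way, from between 17.0% and 26.8% to between 10.2% and 15.8%. The share of S100a6 rose from between 2.07% and 3.18% to between 4.17% and 6.18%. None of these shares overlapped between the groups (exact two-sided permutation p = 0.1 each, the smallest possible). The shares of S100a1, S100a4, S100a10 and S100a16 did overlap (exact two-sided permutation p = 0.2 each), as did that of S100a9 (p = 0.6, same test). For S100a1 the share was 28.5% to 38.6% in WT and 16.4% to 29.2% in KO. The share of S100a8 ran from 3.31% to 16.1% in WT and from 5.46% to 14.2% in KO, with WT replicate 2 and KO replicate 1 at the top. With S100a8 and S100a9 left out of the sum, S100b made up 27.3% ± 1.33 in WT and 16.1% ± 1.80 in KO, S100a1 42.4% ± 1.85 and 30.2% ± 3.41, S100a13 9.88% ± 0.789 and 17.1% ± 2.62, and S100a11 4.48% ± 1.45 and 17.0% ± 0.848 (SD, n = 3 each). In this smaller sum, which was not planned, the shares of S100a4, S100a6 and S100a10 were higher in KO and that of S100a16 was lower. Every share of this sum was without overlap between the groups (exact two-sided permutation p = 0.1 each). Shares of a sum are tied to each other, so they cannot show how many members took part in the shift. A rise in the share of S100a11 goes with a fall in its level.

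Of 16 further S100 and S100-fused genes, 13 were listed in the files and 7 could be tested. S100a5, which is known from olfactory receptor neurons and lies between S100a4 and S100a6, was lower in KO, with 295, 377 and 471 normalized counts in WT and 152, 99.5 and 141 in KO. Its log2 fold change was -1.53 ± 0.23 (SE; limma adjusted p = 0.000218), and the groups did not overlap. Tchh, trichohyalin of the S100-fused group, was lower as well, with 18 to 26 reads per library in WT and 2 to 11 in KO and a log2 fold change of -2.64 ± 0.71 (SE; limma adjusted p = 0.00799).

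S100g, or calbindin-D9k, was the only tested S100 gene that was higher in KO. It had 0 reads in all WT libraries and 5, 29 and 11 reads in KO replicates 1, 2 and 3. Against a floor of 3 reads over the WT libraries together, the pooled KO level was 9.90-fold higher. This ratio leaves out the counting error and the spread of the KO reads. The limma test called the gene (adjusted p = 0.00128). However, S100g passed the filter on the mean only through its KO reads, and its WT values, all 0, had no spread. The call is therefore a description and no support for a difference. S100g lies on chromosome X at 162961992 to 162964599, wholly inside Ctps2, so that reads of the 2 genes cannot be told apart without strand. S100a2, S100a3, S100a7a and S100a14 had at most 11 reads in any library and were not called, S100z was below the filter with at most 6 reads, and Flg2, Hrnr, Rptn, Tchhl1 and Crnn had 0 reads in all 6 libraries.

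**Figure D4:**
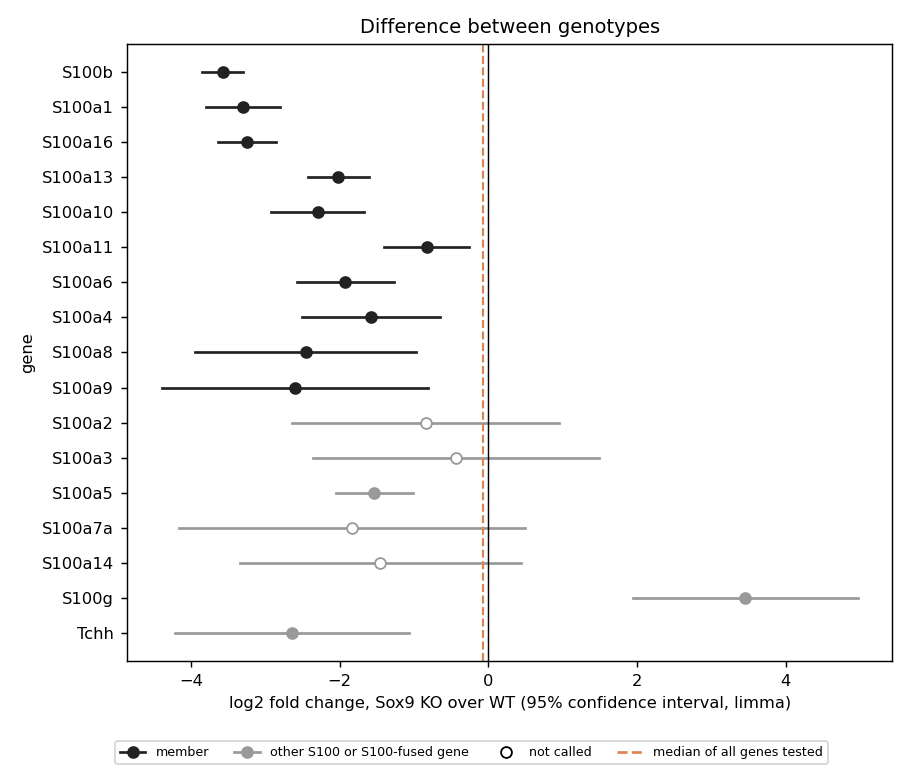
Log2 fold change (Sox9 KO over WT) with its 95% confidence interval from limma for the 10 members (black) and the 7 other S100 or S100-fused genes tested (grey). Filled points were called, open points were not, and the dashed line is the median of all genes tested, -0.07; all members and all other genes but S100g lie to its left.

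Transcripts of proteins that S100 members bind or signal through went both ways. Of 16 partners and receptors, 1 was lower in KO, Fgf1, and 5 were higher. Over all genes tested, 28.8% were lower and 22.2% higher, so these counts are a description and no result about partners. Their median log2 fold change was 0.24. The higher ones were Anxa5 (0.94), Anxa11 (1.70), Myh9 (0.86), Hltf (1.73) and Tlr4 (1.38), the receptor of calprotectin, which went from 2925 ± 251 to 7644 ± 795 normalized counts (SD, n = 3 each; limma adjusted p = 1.25e-06). Ager, the receptor of S100B, did not pass the test and was low, at 25.7 ± 0.569 normalized counts in WT and 17.2 ± 10.1 in KO (SD, n = 3 each). Ahnak, a large scaffold bound by S100A10 and annexin A2, had a log2 fold change of -0.66 (limma adjusted p = 0.0627), and S100pbp, the S100P-binding protein, one of 0.02 (limma adjusted p = 0.874); neither passed the test.

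EF-hand calcium buffers and sensors outside the S100 family went both ways. Of 24 tested, 11 were lower and 6 higher, beside 28.8% lower and 22.2% higher over all genes tested. The median log2 fold change was -1.06, with a range from -4.59 to 2.92. Among those with the highest means, Calm2 (0.78), Efhd2 (1.30) and Aif1 (1.95), the last also one of the microglial markers, were called higher (limma).

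Set against the mean log2 level of the 10 astrocyte markers in the same library, which was 4.21 lower in KO on the log2 scale, 8 members stood higher in every KO library than in any WT library. The difference was 0.64 for S100b, 0.92 for S100a1, 0.97 for S100a16 and 3.38 for S100a11, and S100a8 and S100a9 overlapped between the groups. Of all genes tested, 94.3% stood higher in this sense, so the count says nothing particular to the S100 genes.

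The genes whose log2 values over the 6 libraries lay closest to those of S100b, each centred on its mean, were Gstm1, Nhsl1 and Mtmr11, among 11926 genes with a mean of at least 100 normalized counts. Their Euclidean distances were 0.0924, 0.125 and 0.164. Gstm1, a glutathione transferase, went from 22262 to 1932 normalized counts. Closest to S100a4 were Flrt3, Nid2 and Pcdhga10, at larger distances of 0.416, 0.433 and 0.468. All 6 of these genes had a lower mean in KO, which follows from how they were picked, since S100b and S100a4 were lower in KO.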

How the data were processed

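Gene expression was measured by bulk RNA-seq (Trio RNA-Seq libraries of total RNA) in 3 WT and 3 Sox9 KO libraries, 1 per mouse. Per the labels, the authors used FastQC, MultiQC, STAR 2.5.0a on mm10 and DESeq2 1.20.0. The deposited signal values are named RPM, but 100% of them were whole multiples of 1 step per library within 0.01 read, so they are read counts divided by a size factor and are called normalized counts here; 1 read was worth 0.395 to 1.58. The pseudocount of 1 and the minimum mean of 1 had been set before this unit was known and were kept. No source used here gives the strand setting or the annotation behind the counting.

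KO was compared with WT by limma 3.58.1 (R 4.3.3; trend of variance on mean, two-sided) on log2(normalized count + 1), for the 18413 genes with a mean of at least 1, with Benjamini-Hochberg adjustment over all of them; fold changes are on that scale and understate those of low genes. A call needed an adjusted p under 0.05 and 1.5-fold. Recovered reads were also tested with edgeR 4.0.16 and DESeq2 1.42.0, and the tests were tried on simulated data. No pair of libraries agreed within sampling noise. Confidence intervals are limma's, from the spread between libraries, and floors cover counting error only.

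Members and lists were chosen with earlier results of these data known. Named were all members, Sox9, other S100 genes with a read, fixed partners and any called one, the 4 EF-hand genes with the highest mean (1 is not reported here), up to 3 leading genes and those at 0 of a marker list, and the 3 genes nearest to S100b and S100a4; Ngp, Camp, Ltf, Lcn2, Cxcr2 and Mmp9 were added after their values were seen. Coordinates and promoter windows are from RefSeq GRCm38.p6 and transcript lengths from GENCODE M21; 95.0% of the symbols were found in RefSeq.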

Additional observations from a re-analysis of the deposited data

How the results depend on the processing

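No member changed its sign under the 18 alternatives tried for each. Of 180 member values, 167 kept their side of the threshold and 13 did not: S100a9 and S100a11 lost their call in 5 alternatives each, S100a8 in 2 and S100a4 in 1. All 10 members stayed called with pseudocounts of 5 or 0.1, a minimum mean of 10, libraries scaled to the same total (with or without Rn45s, the ribosomal precursor), edgeR and DESeq2. Without the filter, and without the variance trend, 7 were called, S100a8, S100a9 and S100a11 being lost. Quantile normalisation called 8. Leaving out each library called 9 to 10. In edgeR without WT replicate 2, added after seeing the data, 9 were called, with S100a9 at an adjusted p of 0.141.

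Scaling moved all genes: relative to the values used, the median log2 fold change shifted by -0.23 with equal totals, by -0.31 with equal totals without Rn45s and by 0.27 with quantile normalisation. The share of calls that were lower in KO was 56.4%, and 67.8%, 71.5% and 43.2% under these scalings. The share of S100b in the summed S100 level, 22.4% in WT and 12.7% in KO per kb, was 40.6% and 26.3% without division by length, and 16.1% in KO with S100a8 and S100a9 left out.

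With the replicate number as a block, 10 members were called and Sox9 kept its log2 fold change of -6.54. Same-numbered libraries showed no shared shift: their deviations from the group means correlated at -0.05, -0.01 and -0.01 across genes. Such values cannot show whether samples of the same number were handled together. Nothing in the sources ties a number to a batch, and each group has 3 mice, so p-values rest on the spread between 3 libraries.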
